A study of Mus musculus with 8 samples.

Results

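The serpin genes of the mouse array are described here in thymic and intestinal epithelium. They were taken as every probe whose gene name in the scanner files begins with Serpin, which gave 79 probes of 62 genes, out of 55669 probes and 34963 gene names. Expression was measured on 8 single-colour arrays, 1 per pooled RNA sample, from mice of mixed C57BL/6 and 129 background. Mature medullary thymic epithelial cells (mTEC) came from 3 Cdx1-/- and 3 Cdx1+/+ samples, each pooled from 4 to 6 thymi and sorted as Epcam+ cells that bound the lectin UEA1, excluded CD45 and the death dye Fluorogold, and had much CD80 and MHCII on their surface. Small intestine epithelial cells (SIEC) came from 1 sample labelled Cdx1-/- and 1 labelled Cdx1+/+, each pooled from 3 mice. Cdx1 encodes a caudal-type homeobox protein that regulates genes of the gut lining, and the series compares ectopic gene expression with and without it. The labels state neither the deleted part of Cdx1 nor the age of the mice. The design text speaks of 3 replicates per group, and 1 SIEC array per label was analysed here.

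Serpins share a fold with an exposed reactive centre loop. In the inhibitory members a target protease cuts this loop and is trapped and destroyed in a covalent complex, so that each inhibitor molecule is used up. Clade A and clades C to G and I are mostly secreted, and many are plasma proteins made by the liver. Clade B members lack a classical signal peptide and act mainly inside cells, where they protect epithelia and leukocytes from their own or from invading proteases. Some members do not inhibit proteases and instead carry hormones, chaperone collagen or suppress tumours. Mature mTEC transcribe many genes that otherwise belong to single organs, which lets developing T cells meet those proteins in the thymus.

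Levels are log2 processed signals minus the 75th percentile of the same array, so a level of 0 equals that percentile, and levels of different probes are not comparable with each other. Between 44.6% and 63.5% of the spots of an array were well above background, and the number of arrays limits the precision. The Cdx1 probe read 5.04, 5.20 and 5.21 on the Cdx1-/- mTEC arrays, against 6.09, 6.12 and 6.18 on the Cdx1+/+ mTEC arrays. In intestine the array labelled Cdx1-/- read 6.73 and its Cdx1+/+ counterpart 5.13, which goes against those labels, so directions in intestine are given by label only. All 9 mTEC markers were well above background on all 6 mTEC arrays, and Aire, Fezf2 and Krt5 were so on neither SIEC array. In SIEC 5 of the 9 were above background under the Cdx1-/- label and 6 under the Cdx1+/+ label. Fitted tissue differences put 8 of the 9 higher in mTEC and 1 lower. Epcam averaged 3.52 in Cdx1-/- mTEC and 3.41 in Cdx1+/+ mTEC, and read 6.00 and 5.97 on the SIEC arrays labelled Cdx1-/- and Cdx1+/+. All 7 intestinal markers were above background on all 8 arrays, with fitted log2 differences that put all 7 lower in mTEC than in SIEC.

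The 62 genes fell into 12 places on the genome when probes on a chromosome with no gap over 1 Mb between neighbours were joined (positions of the files, build mm9). Of these places, 5 held more than 1 gene and together 55 genes. The Serpina run on chromosome 12 (104854887 to 105651977) held 24 genes, the Serpinb run on chromosome 13 (32934693 to 34009855) held 15 genes and the Serpinb run on chromosome 1 (108778585 to 109504924) held 12 genes. Serpini1 with Serpini2 on chromosome 3 and Serpinf1 with Serpinf2 on chromosome 11 made up the other runs, and the remaining 7 genes stood alone.

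The runs hold recent duplicates whose probes can be hard to tell apart. Of 3081 pairs of member probes, 13 pairs for different genes matched over at least 40 of 60 bases, and they involved 15 genes. The stretches of 30 bases below, read from the scanner files, show the nearest cases among genes discussed later. Lower case marks letters that all probes of the set share and capitals mark letters that differ.
Serpina1e probe, chromosome 12, minus strand: GaAgtcatccttccttctgaattgggttcc
Serpina1c probe, chromosome 12, minus strand: GaTgtcatccttccttctgaattgggttcc
Serpina1a probe, chromosome 12, minus strand: AaTgtcatccttccttctgaattgggttcc
Serpina3h probe, chromosome 12, plus strand: AaTtctaTgttgtgAaaaaatctattctat
Serpina3i probe, chromosome 12, plus strand: TaAtctaCgttgtgGaaaaatctattctat
Serpinb6a probe, chromosome 13, minus strand: aagtgaccttatccataaGtGCaatgGcaA
Serpinb6c probe, chromosome 13, minus strand: aagtgaccttatccataaGtGCaatgAcaG
Serpinb6e probe, chromosome 13, minus strand: aagtgaccttatccataaAtATaatgAcaG
Serpinb9f probe, chromosome 13, plus strand: GcagTgagtcctctaacaaatggccatttc
Serpinb9g probe, chromosome 13, plus strand: AcagAgagtcctctaacaaatggccatttc
The Serpina1c and Serpina1e probes matched over 56 bases, Serpina3h and Serpina3i over 53, Serpina1a and Serpina1c over 50, and Serpinb9f and Serpinb9g over 49. Pairs without a stretch shown were Serpina3b and Serpina3f (45 bases), Serpinb3a and Serpinb3c (43), and Serpina3a with each of Serpina3b and Serpina3f (42). The Serpinb6c stretch belongs to the dimmer of its 2 probes, which matched that of Serpinb6a over 55 bases. Levels of Serpinb6c below come from the brighter probe, which matched that of Serpinb6e over 41 bases. Values of these genes are therefore uncertain as to which copy gave the signal, and how much each probe binds its neighbours' transcripts was not tested.

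Most of the family was detected in mTEC. A gene counted as measured there when a probe of it was well above background on 2 or more arrays of 1 genotype, which held for 57 of 62 serpin genes, beside 69.6% of all genes on the array. On both SIEC arrays 21 serpin genes were above background, beside 49.1% of all genes. Clade A had 24 of 25 genes above background in mTEC and 10 on both SIEC arrays, and clade B had 24 of 27 in mTEC and 7 on both SIEC arrays. In all, 35 genes were above background in mTEC and on neither SIEC array. Serpina1b, Serpinb1c, Serpinb3b and Serpinb9b were not well above background on any array, and Serpini2 was so on 1 array of each mTEC genotype only.

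Serpin genes changed in both directions in Cdx1-/- mTEC. With limma over all genes and a Benjamini-Hochberg adjusted p under 0.05, 9 of 57 serpin genes tested were higher and 11 lower in Cdx1-/- mTEC. Among all 24338 genes tested, 13.0% passed in either direction, 6.40% as higher and 6.62% as lower. The median log2 difference was −0.07 over the 57 serpin genes and 0.01 over all genes, and the median absolute difference was 0.37 over the serpin genes and 0.20 over all genes. In clade A 2 genes were higher and 8 lower, but the 8 became 2 without any single Cdx1+/+ replicate or without Cdx1-/- replicate 3, 3 without Cdx1-/- replicate 1 and 4 without Cdx1-/- replicate 2, while the 2 higher genes passed each time. In clade B 6 were higher and 3 lower, and in the other clades only Serpini1 passed, as higher. On all 20 the Cdx1-/- and Cdx1+/+ arrays did not overlap, which held for 36 of the 57 serpin genes and for 38.3% of all genes tested. Called genes were 1.37- to 2.33-fold higher or 1.27- to 2.02-fold lower in Cdx1-/- mTEC. In such sorted pools, fewer cells that express a gene and less of its RNA per cell cannot be told apart.

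The clade A genes that were higher are a hormone carrier and a lymphocyte serpin. Serpina7 encodes thyroxine-binding globulin, a plasma carrier of thyroid hormone that does not inhibit proteases, and its probe lies on chromosome X (135615848 to 135616502). It read 1.43, 1.21 and 1.40 on the Cdx1-/- arrays, against 0.02, 0.33 and 0.03 on the Cdx1+/+ arrays. The lowest Cdx1-/- array stood well clear of the highest Cdx1+/+ array, and the log2 difference was 1.22 with a standard error of 0.12 (2.33-fold, limma adjusted p = 0.00401). Serpina9, a serpin known from germinal centre B cells (chromosome 12, 105234830 to 105234889), read 3.70, 3.78 and 3.86 in Cdx1-/- mTEC, against 3.27, 3.25 and 3.27 in Cdx1+/+ mTEC. The Cdx1+/+ arrays lay within 0.01 (SD) of their mean, and the log2 difference was 0.52 (SE 0.08, adjusted p = 0.0132).

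In the chromosome 1 run 4 clade B genes were higher in Cdx1-/- mTEC. Serpinb7, an inhibitor of the upper epidermis whose loss in humans causes a palm and sole keratoderma (109349063 to 109349122), read 1.20, 1.02 and 1.26 in Cdx1-/- mTEC, against −0.09, 0.12 and 0.07 in Cdx1+/+ mTEC. Its groups were far apart beside their spread, with a log2 difference of 1.13 (SE 0.10, 2.19-fold, adjusted p = 0.00343). Serpinb2, the plasminogen activator inhibitor PAI-2 of keratinocytes and macrophages, read 3.80, 3.15 and 3.88 in Cdx1-/- mTEC, against 2.26, 2.56 and 2.46 in Cdx1+/+ mTEC. Replicate 2 of Cdx1-/- was nearest to the Cdx1+/+ arrays, and the log2 difference was 1.18 (SE 0.21, 2.27-fold, adjusted p = 0.0168). Serpinb5 encodes maspin, an epithelial protein that suppresses tumour invasion and does not inhibit proteases. It read 2.61, 2.44 and 2.46 in Cdx1-/- mTEC, against 2.02, 1.74 and 1.88 in Cdx1+/+ mTEC (difference 0.62, SE 0.11, adjusted p = 0.0157). Serpinb11, an epithelial serpin that inhibits trypsin-like proteases in mouse, read 2.39, 2.29 and 2.33 in Cdx1-/- mTEC, against 1.90, 1.83 and 1.91 in Cdx1+/+ mTEC. Its groups kept within narrow ranges that did not meet, with a difference of 0.45 (SE 0.08, adjusted p = 0.0171).

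On chromosome 13, duplicates of the granzyme inhibitor gene Serpinb9 were higher, while Serpinb9 itself was lower. Serpinb9f read −1.60, −1.99 and −2.06 in Cdx1-/- mTEC, against −2.75, −2.70 and −2.75 in Cdx1+/+ mTEC (difference 0.85, SE 0.13, adjusted p = 0.0124). Serpinb9d read −2.07, −2.48 and −2.55 in Cdx1-/- mTEC, against −3.02, −2.81 and −2.96 in Cdx1+/+ mTEC (difference 0.56, SE 0.15, adjusted p = 0.0497). In both duplicates Cdx1-/- replicate 1 was the highest array, and with the replicate number as a block the adjusted p of Serpinb9d was 0.0708. That block added Serpinb9e (difference 0.63, adjusted p = 0.0839 without it and 0.0491 with it) and Serpinb9g (difference 0.50, adjusted p = 0.223 without it and 0.0363 with it). Serpinb9c was well above background on 2 Cdx1-/- arrays and on no Cdx1+/+ array, so it entered the test through Cdx1-/- arrays alone. It did not pass (adjusted p = 0.0665), and no fold is given. Serpinb9 protects cytotoxic lymphocytes and antigen-presenting cells from granzyme B. It read 1.78, 1.88 and 1.78 in Cdx1-/- mTEC, against 2.22, 2.26 and 2.08 in Cdx1+/+ mTEC, and its lowest Cdx1+/+ array was above all Cdx1-/- arrays (difference −0.37, SE 0.09, adjusted p = 0.0406).

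Serpini1 encodes neuroserpin, an inhibitor of tissue plasminogen activator made by neurons, and lies on chromosome 3 (75446123 to 75446182). It read 1.45, 0.97 and 0.99 in Cdx1-/- mTEC, against 0.49, 0.36 and 0.54 in Cdx1+/+ mTEC. Cdx1-/- replicate 1 was the highest array, and the log2 difference was 0.67 (SE 0.15, adjusted p = 0.0317). The second Serpini1 probe differed by 0.84 (SE 0.15) when every probe was tested on its own (adjusted p = 0.0194).

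Most of the lower genes were secreted clade A serpins of chromosome 12. The mouse Serpina3 genes are duplicates of the antichymotrypsin gene, an acute-phase inhibitor of chymotrypsin-like proteases. Of these, 10 of the 11 measured had differences below 0, beside a median of 0.01 over all genes. Some of their probes match each other, as given above, so these signs are not independent observations. Serpina3b read −1.49, −1.12 and −1.24 in Cdx1-/- mTEC, against −0.42, −0.09 and −0.29 in Cdx1+/+ mTEC. It had the largest fall of the family, a log2 difference of −1.01 (SE 0.13, 2.02-fold lower, adjusted p = 0.00828). Serpina3j read 0.36, 0.41 and 0.18 in Cdx1-/- mTEC, against 1.23, 1.21 and 1.17 in Cdx1+/+ mTEC, and the difference was −0.89 (SE 0.09, adjusted p = 0.00466). In both genes every Cdx1-/- array lay below every Cdx1+/+ array. Serpina3a read −3.52, −3.07 and −3.20 in Cdx1-/- mTEC, against −2.75, −2.80 and −2.58 in Cdx1+/+ mTEC (difference −0.55, SE 0.14, adjusted p = 0.0461, and 0.0540 with the replicate block). Serpina3i read 1.68, 1.81 and 1.78 in Cdx1-/- mTEC, against 2.09, 2.11 and 2.09 in Cdx1+/+ mTEC (difference −0.34, SE 0.08, adjusted p = 0.0397, and 0.0505 with the replicate block). When every probe was tested on its own, the second Serpina3i probe differed by −0.20 and did not pass (adjusted p = 0.172). The second Serpina3a probe, well above background on 1 Cdx1-/- and 2 Cdx1+/+ arrays, differed by −0.03 (adjusted p = 0.982). The other 7 Serpina3 genes did not pass, with differences between −0.33 (Serpina3h) and 0.10 (Serpina3c).

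The Serpina1 genes are the mouse duplicates of alpha-1 antitrypsin, the liver's main inhibitor of neutrophil elastase, and all 5 that were measured had differences below 0. Serpina1a read 1.38, 1.31 and 1.01 in Cdx1-/- mTEC, against 1.67, 1.77 and 1.66 in Cdx1+/+ mTEC (difference −0.47, SE 0.12, adjusted p = 0.0489). Serpina1c read 1.36, 1.26 and 1.01 in Cdx1-/- mTEC, against 1.64, 1.74 and 1.64 in Cdx1+/+ mTEC (difference −0.46, adjusted p = 0.0432). Serpina1e read 1.34, 1.34 and 1.07 in Cdx1-/- mTEC, against 1.65, 1.72 and 1.64 in Cdx1+/+ mTEC (difference −0.43, adjusted p = 0.0427). Cdx1-/- replicate 3 was the lowest array of all 3, and given the shared probe letters shown above they are not independent observations. Serpina1d, whose probe matched none of theirs over 40 bases, had a difference of −0.47 (adjusted p = 0.0876), and Serpina1f one of −0.07 (adjusted p = 0.792). When every probe was tested on its own, second probes of Serpina1a (−0.60, adjusted p = 0.0269), Serpina1e (−0.48, 0.0317) and Serpina1d (−0.53, 0.0448) passed as lower. In that fit the brighter probes of these genes did not pass. Serpina11, a little-studied liver serpin next to Serpina1e, read 2.10, 2.19 and 2.24 in Cdx1-/- mTEC, against 2.57, 2.45 and 2.66 in Cdx1+/+ mTEC (difference −0.38, SE 0.09, adjusted p = 0.0424). Its second probe differed by −0.44 and did not pass on its own (adjusted p = 0.0709). Serpina4-ps1, which the file's name marks as a pseudogene, differed by −0.59 and did not pass (adjusted p = 0.0648).

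Serpinb1a and Serpinb12 completed the lower genes. Serpinb1a, an inhibitor of neutrophil elastase, proteinase 3 and cathepsin G, read 5.77, 5.87 and 5.88 in Cdx1-/- mTEC, against 6.39, 6.56 and 6.30 in Cdx1+/+ mTEC. The groups were separated by more than the range within either, with a difference of −0.58 (SE 0.10, adjusted p = 0.0152). Serpinb12, a trypsin inhibitor of epithelia (chromosome 1, 108846143 to 108846202), read 1.59, 1.57 and 1.44 in Cdx1-/- mTEC, against 2.12, 1.94 and 2.08 in Cdx1+/+ mTEC (difference −0.51, SE 0.09, adjusted p = 0.0193). Serpinb13, its neighbour and an inhibitor of cathepsins L and K in human keratinocytes, differed by −0.52 and did not pass (adjusted p = 0.0584).

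**Figure D1:**
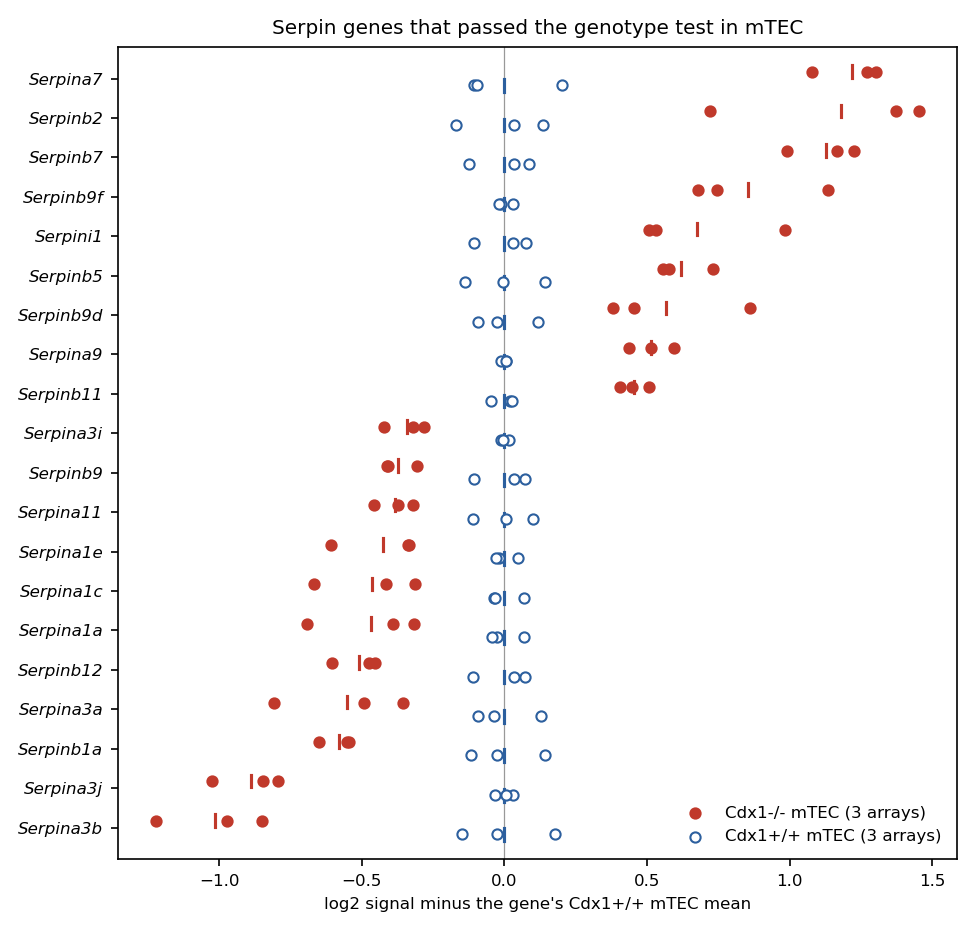
Each row is a serpin gene that passed the genotype test in mTEC, and the horizontal axis is the log2 signal minus the gene's mean over the 3 Cdx1+/+ mTEC arrays. Filled points are the 3 Cdx1-/- arrays, open points the 3 Cdx1+/+ arrays and short lines the means, which run from 1.22 for Serpina7 down to −1.01 for Serpina3b, with no overlap between genotypes in any row.

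The calls were of unequal strength. Serpinb7, Serpina7, Serpinb9f, Serpina9, Serpina3j, Serpina3b and Serpinb1a passed under each of 15 alternatives. Of these, the fits within slide 1, without Cdx1-/- replicate 1 and with slide as a block gave the same differences and amount to 1 fit. The highest adjusted p of these genes without any single array was 0.0487, for Serpina9. The other 13 lost the call when 1 array or another was left out. Serpinb2 (adjusted p = 0.0508) and Serpinb5 (adjusted p = 0.0534) lost it only without Cdx1+/+ replicate 3. Serpinb11 lost it without Cdx1+/+ replicate 3 or Cdx1-/- replicate 3 (adjusted p up to 0.0551). Serpinb12 lost it without Cdx1+/+ replicate 1 or 3 or Cdx1-/- replicate 2 or 3 (up to 0.0666), and Serpini1 without any single Cdx1+/+ replicate or Cdx1-/- replicate 3 (up to 0.0903). Serpina1c kept it only without Cdx1-/- replicate 1 and Serpina3a only without Cdx1-/- replicate 2. Serpina11, Serpina1a, Serpina1e, Serpina3i, Serpinb9 and Serpinb9d lost it whichever array was left out (adjusted p between 0.0554 and 0.1245). Without Cdx1+/+ replicate 3, 7 serpin genes passed, and without Cdx1+/+ replicate 1, 10 did. All 20 kept their sign under every alternative.

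The arrays lay on 2 slides. Slide 1 held the 3 Cdx1+/+ arrays and Cdx1-/- replicates 2 and 3, while Cdx1-/- replicate 1 shared slide 2 with both SIEC arrays. Within slide 1, 13 of the 57 serpin genes passed, 8 as higher and 5 as lower. The fit with slide as a block gave the same counts and is not separate. In it the slide term absorbs Cdx1-/- replicate 1, the only mTEC array on slide 2. Within slide 1 is also the fit without Cdx1-/- replicate 1, and leaving out other single arrays gave 7 to 14 genes, so the slide and the loss of an array cannot be told apart here. Within slide 1 the log2 difference was 1.11 for Serpinb7 (adjusted p = 0.0136), 1.17 for Serpina7 (0.0149) and −0.91 for Serpina3b (0.0203). It was −0.35 for Serpina11 (0.0991), −0.54 for Serpina1a (0.0554), −0.47 for Serpina1e (0.0651), −0.42 for Serpina3a (0.0763), −0.30 for Serpina3i (0.0913), −0.36 for Serpinb9 (0.0928) and 0.42 for Serpinb9d (0.0687). These 7 did not pass there.

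In the chromosome 12 run 1 of 23 measured genes was higher and 8 were lower, and the median log2 difference was −0.30. The 8 lower calls became 2 to 4 when a single array was left out, 3 with the normexp correction and 2 with no filter on dim probes. The exception, Serpina9, lies between Serpina11, which was lower, and Serpina12, which differed by 0.56 and did not pass (adjusted p = 0.163). In the chromosome 1 run 4 of 11 measured genes were higher and 1 was lower, with a median of 0.45, and without Cdx1+/+ replicate 3 only 1 was higher and none lower. Its lower gene, Serpinb12, lies beside Serpinb5, which was higher, and the Serpinb3 duplicates in the middle of the run, which are relatives of human squamous cell carcinoma antigens, differed by −0.04 to 0.13. In the chromosome 13 run 2 of 13 measured genes were higher and 2 lower, with a median of 0.13. Without any single array other than Cdx1-/- replicate 3, 1 was higher and 1 lower there, and without that replicate 3 were higher and 1 lower. In this run 5 of the 6 measured Serpinb9 genes had differences above 0. Among them, Serpinb9c was measured through Cdx1-/- arrays alone. The Serpinb9f and Serpinb9g probes share most letters, so these signs are not independent observations. The Serpinb6 genes, relatives of a cathepsin G inhibitor of leukocytes and inner ear, had differences between −0.31 and 0.13, none of which passed.

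**Figure D2:**
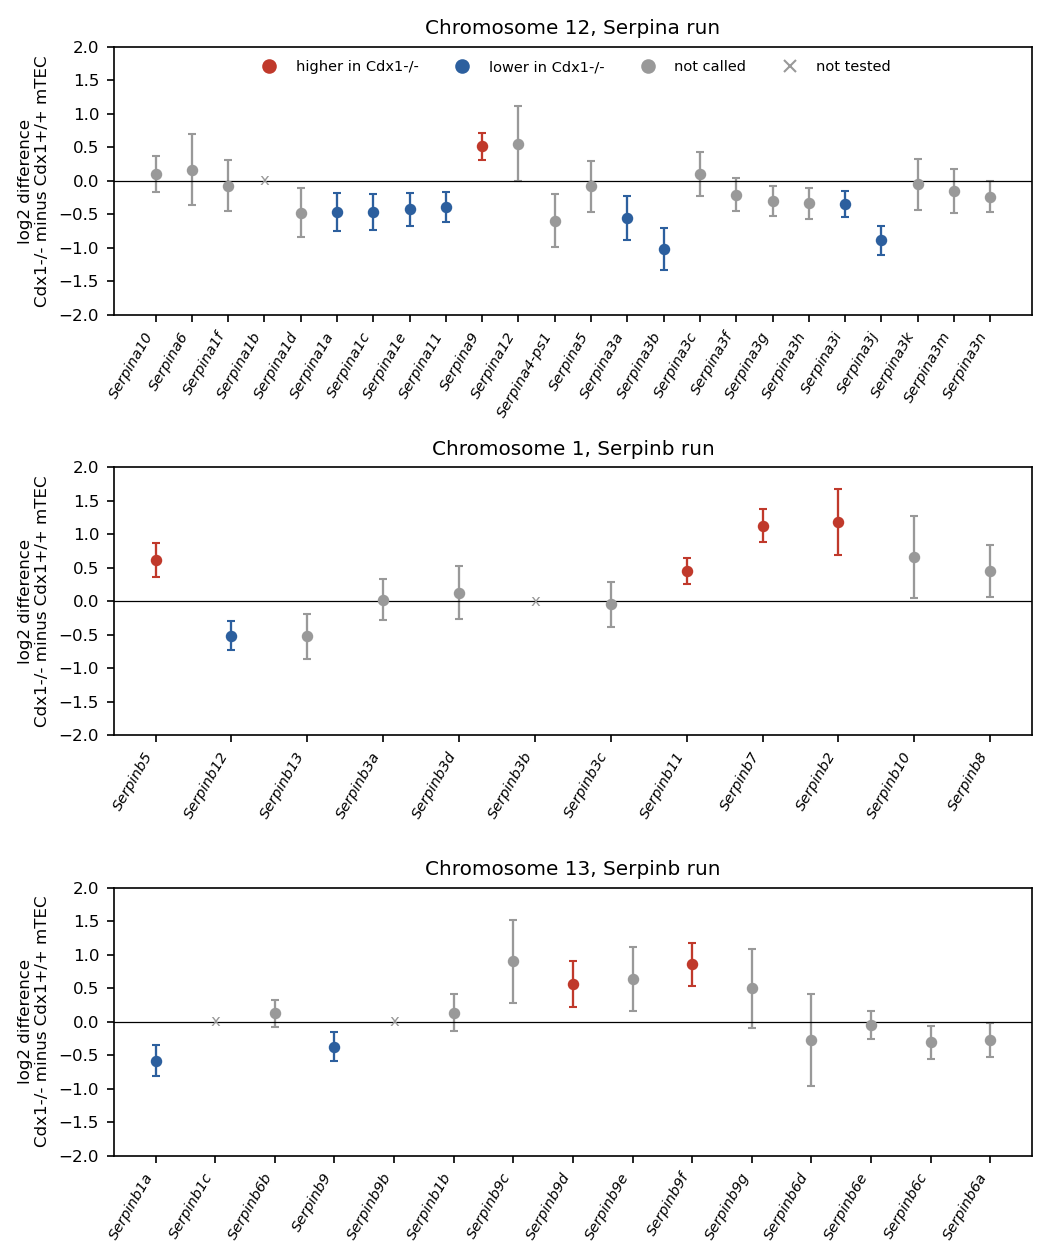
The vertical axis is the log2 difference, Cdx1-/- minus Cdx1+/+ mTEC, with its 95% interval from the limma fit, and genes stand in the order of their probes along each run, not to scale. Red points passed as higher, blue points as lower and grey points did not pass, and a cross marks a gene not tested. In the chromosome 12 panel 8 blue points stand beside 1 red point (2 to 4 blue points would remain with a single array left out), and in the chromosome 1 panel 4 red points stand beside 1 blue point.

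The upstream sequences of the 4 genes that changed at least 2-fold are shown because they belong to 3 different chromosomes and moved in both directions. They are the 250 bases before the first listed transcription start (RefSeq, build GRCm38.p6), 5′ to 3′ on the strand of the gene. Capitals mark the word TTTATA, the word TTTATG and the word TTTATT on either strand, which resemble the AT-rich sites known for caudal-type homeobox proteins. Read on the other strand, TTTATA contains the usual word of the TATA box.
Serpinb7, chr1:107422439-107422688, plus strand: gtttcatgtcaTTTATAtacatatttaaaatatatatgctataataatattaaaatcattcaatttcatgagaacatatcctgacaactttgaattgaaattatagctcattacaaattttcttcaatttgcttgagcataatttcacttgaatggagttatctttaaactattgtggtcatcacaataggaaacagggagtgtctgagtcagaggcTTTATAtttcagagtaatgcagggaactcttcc
Serpina7, chrX:139085237-139085486, minus strand: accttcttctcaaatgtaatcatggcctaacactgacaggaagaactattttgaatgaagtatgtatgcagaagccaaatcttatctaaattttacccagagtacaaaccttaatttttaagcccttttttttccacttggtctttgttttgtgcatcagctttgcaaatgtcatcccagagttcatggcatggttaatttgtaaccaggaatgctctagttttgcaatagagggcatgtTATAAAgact
Serpina3b, chr12:104127746-104127995, plus strand: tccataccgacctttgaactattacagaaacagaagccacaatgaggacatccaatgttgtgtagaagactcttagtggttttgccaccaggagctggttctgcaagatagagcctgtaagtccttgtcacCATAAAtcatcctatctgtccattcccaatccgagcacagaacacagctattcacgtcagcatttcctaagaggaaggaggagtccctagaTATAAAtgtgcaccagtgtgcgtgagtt
Serpinb2, chr1:107511173-107511422, plus strand: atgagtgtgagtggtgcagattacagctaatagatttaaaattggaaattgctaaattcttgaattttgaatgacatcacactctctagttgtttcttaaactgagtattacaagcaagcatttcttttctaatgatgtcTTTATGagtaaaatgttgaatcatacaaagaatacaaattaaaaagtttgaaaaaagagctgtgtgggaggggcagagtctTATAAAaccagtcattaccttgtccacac
Each of the 4 holds TTTATA on either strand, and Serpina3b and Serpinb2 also hold TTTATG. In Serpinb7, Serpina3b and Serpinb2 a TTTATA match starts 33, 28 and 29 bases before the transcription start, where TATA boxes usually lie, and in Serpina7 it starts 10 bases before. G and C make up 29.2% of the Serpinb7 window, 36.0% of Serpina7, 45.2% of Serpina3b and 32.4% of Serpinb2. The RefSeq table listed 51 of the 62 serpin genes, and 29 of them (56.9%) held at least 1 of the 3 words, against 33.5% of all 27025 genes in the table. By word, the shares were 25.5% of the serpin genes and 13.0% of all genes for TTTATA, 17.6% and 11.1% for TTTATG, and 27.5% and 18.5% for TTTATT. At least 1 word stood before 6 of 8 genes that were higher in Cdx1-/- mTEC, 7 of 10 that were lower and 12 of 28 that did not pass. The duplicates Serpinb9d and Serpinb9f are among the 6, and Serpina1a, Serpina1c and Serpina1e, each with TTTATG, among the 7. Serpina1d, Serpinb9e and Serpinb9g are among the 12. These counts are therefore not of independent promoters. The windows differ in base composition, with a median of 48.0% G and C before serpin genes and 52.0% before all genes. A match is a string of letters and was not tested as a binding site.

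The remaining 37 measured genes did not pass, with log2 differences between −0.59 and 0.90. Among them were the main plasma inhibitors of clotting and fibrinolysis. Serpinc1, which encodes antithrombin, read 3.16, 3.26 and 3.37 in Cdx1-/- mTEC, against 2.91, 2.99 and 2.97 in Cdx1+/+ mTEC, groups that did not meet (difference 0.30, adjusted p = 0.0716). Serpind1, heparin cofactor II, averaged −0.78 ± 0.08 in Cdx1-/- mTEC and −0.91 ± 0.03 in Cdx1+/+ mTEC (SD, n = 3 each, difference 0.13, limma adjusted p = 0.339). Serpine2, the thrombin inhibitor protease nexin 1, read −1.66, −1.44 and −1.40 in Cdx1-/- mTEC, against −1.80, −1.64 and −1.82 in Cdx1+/+ mTEC (difference 0.26, adjusted p = 0.157). Serpinf2, which encodes the plasmin inhibitor alpha-2 antiplasmin, read −3.23, −3.60 and −3.31 in Cdx1-/- mTEC, against −3.14, −2.79 and −3.19 in Cdx1+/+ mTEC (difference −0.34, adjusted p = 0.179). The genotypes overlapped for Serpine2, and for Serpinf2 they lay just apart. Serpinf1, which encodes the antiangiogenic factor PEDF, read 0.55, 0.61 and 0.36 in Cdx1-/- mTEC, against 0.71, 1.11 and 0.84 in Cdx1+/+ mTEC (difference −0.38, adjusted p = 0.105). Serping1, the inhibitor gene of the first complement component, read 1.94, 2.13 and 2.02 in Cdx1-/- mTEC, against 1.95, 2.40 and 2.02 in Cdx1+/+ mTEC, which overlapped (difference −0.09, adjusted p = 0.686). The collagen chaperone gene Serpinh1 read 0.53, 0.82 and 0.53 in Cdx1-/- mTEC, against 0.97, 0.86 and 0.95 in Cdx1+/+ mTEC (difference −0.30, adjusted p = 0.114).

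Further clade A and B genes with strong probe signals in mTEC did not pass. Serpina3g, a lymphocyte serpin that inhibits cathepsins, read 5.73, 5.66 and 5.54 in Cdx1-/- mTEC, against 6.05, 5.91 and 5.88 in Cdx1+/+ mTEC (difference −0.30, adjusted p = 0.0820). Serpinb6a read 5.01, 5.09 and 5.05 in Cdx1-/- mTEC, against 5.32, 5.50 and 5.15 in Cdx1+/+ mTEC (difference −0.27, adjusted p = 0.142). Serpinb6c averaged 4.54 ± 0.09 in Cdx1-/- mTEC and 4.85 ± 0.14 in Cdx1+/+ mTEC (SD, n = 3 each, difference −0.31, limma adjusted p = 0.0978). All 3 had lower values on every Cdx1-/- array than on any Cdx1+/+ array. Serpina3f, whose tissue difference was among the largest of its clade, read 1.28, 1.25 and 1.34 in Cdx1-/- mTEC, against 1.66, 1.34 and 1.49 in Cdx1+/+ mTEC (difference −0.21, adjusted p = 0.231). Its probe lies at 105492556 to 105492615, beside that of Serpina3h (105491733 to 105491792). The other Serpina3f probe lies at 105458989 to 105459048 and differed by −0.16 (adjusted p = 0.443 when every probe was tested on its own). Which gene gave the signal was not tested. Serpinb10, the neighbour of Serpinb2, read 2.01, 1.18 and 2.13 in Cdx1-/- mTEC, against 0.90, 1.28 and 1.16 in Cdx1+/+ mTEC, and Cdx1-/- replicate 2 lay among the Cdx1+/+ arrays (difference 0.66, adjusted p = 0.138). Serpinb8, an inhibitor of furin-like proteases, differed by 0.45 (adjusted p = 0.118, and 0.0366 with the replicate block).

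Proteases that serpins can act on were read from lists chosen for their roles. None of 7 complement proteases passed, 1 of 11 clotting and fibrinolysis proteases did, and the medians of these lists were −0.10 and −0.27. The gene that passed was F7, clotting factor VII, which fell by 0.64 on the log2 scale (adjusted p = 0.00841). Of 14 leukocyte and mast cell serine proteases 7 were lower and none higher (median −0.41), among them Ctsg, which encodes cathepsin G (−0.68, adjusted p = 0.0162), and the mast cell protease gene Mcpt4 (−0.77, adjusted p = 0.0171). Ctsh (−0.40) and Ctsf (−0.39) were the 2 lower genes of 12 cysteine cathepsins and caspases. Of 17 epithelial serine proteases Tmprss6 (−0.63) and Tmprss2 (−0.66) were lower and Tmprss4 (0.40) and Htra1 (0.44) higher. Of 13 serpin receptors and cofactors only the receptor gene Lrp8 passed (−0.48, adjusted p = 0.0205).

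Other families of protease inhibitors changed in both directions as well. Of 27 measured genes 3 were higher and 4 lower in Cdx1-/- mTEC, with a median of 0.05. The epidermal inhibitor gene Spink5 rose by 1.11 (adjusted p = 0.00362), and the inter-alpha-trypsin inhibitor genes Itih4 (−0.81), Itih3 (−0.60) and Itih1 (−0.70), which encode plasma proteins of the liver, fell. Of 16 other hepatocyte genes 8 were lower and none higher (median −0.62), led by Fabp1 (−1.44) and Pck1 (−1.64). Both are also intestinal genes, with levels of 2.12 in mTEC and 8.82 in SIEC for Fabp1 and 1.55 in mTEC and 3.94 in SIEC for Pck1. The summed linear signal of the 16 genes, in units of the array's 75th percentile, was 28.7 to 31.0 in Cdx1-/- mTEC and 47.8 to 53.1 in Cdx1+/+ mTEC, and all 16 were above background on every mTEC array. Of 15 cornified keratinocyte genes 6 were higher and none lower (median 0.39), among them Ivl (0.72), Krt10 (1.08), Calm4 (0.82) and Sbsn (0.69). Their summed signal was 260.0 to 292.4 in Cdx1-/- mTEC and 189.2 to 209.7 in Cdx1+/+ mTEC. None of the 9 mTEC markers passed. Among markers of cell types that may remain after sorting, 1 of 10 thymocyte genes was lower, 2 of 6 B cell genes were higher and 1 lower, and 1 of 10 dendritic cell and macrophage genes was higher and 1 lower. Of 9 granulocyte and mast cell genes 1 was higher and 1 lower, of 9 mesenchymal genes 2 were lower, of 8 endothelial genes 1 was higher and 2 lower, and of 7 intestinal markers 5 were lower. The summed signal was 15.6 to 16.3 in Cdx1-/- mTEC and 27.6 to 31.5 in Cdx1+/+ mTEC for the intestinal markers, and 16.3 to 17.9 in Cdx1-/- and 21.3 to 25.6 in Cdx1+/+ mTEC for the 14 leukocyte and mast cell proteases. Sums that did not overlap between genotypes were also found for B cell genes (15.0 to 16.5 in Cdx1-/- and 11.4 to 12.8 in Cdx1+/+ mTEC), granulocyte and mast cell genes (169.9 to 179.6 in Cdx1-/- and 193.1 to 231.9 in Cdx1+/+ mTEC) and mesenchymal genes (70.8 to 77.6 in Cdx1-/- and 79.0 to 86.3 in Cdx1+/+ mTEC). The median log2 difference of the B cell genes was −0.32, against the direction of their sum. It was −0.10 for the granulocyte and mast cell genes and −0.05 for the mesenchymal genes. The sums of the thymocyte, dendritic cell and macrophage, and endothelial lists overlapped. Among other lists, sums did not overlap for clotting and fibrinolysis proteases (21.5 to 28.8 in Cdx1-/- and 31.0 to 32.25 in Cdx1+/+ mTEC). Nor did those of cysteine cathepsins and caspases (325.7 to 352.2 and 356.1 to 382.5) or epithelial serine proteases (104.8 to 105.9 and 85.7 to 92.2). Those of complement proteases, receptors and cofactors, other protease inhibitors and mTEC markers overlapped. Among single genes, groups did not overlap for 38.3% of all tested. The part that these genes or the cells expressing them had in the serpin differences was not tested.

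Between tissues the family stood mostly on the thymic side. In a limma fit over the 8 arrays with an additive genotype effect, 47 of 57 serpin genes were higher in mTEC than in SIEC, 9 were lower and 1, Serpinb6d, did not pass. Among all 25273 genes tested, 84.1% passed, 33.9% as higher and 50.2% as lower in mTEC. The median log2 difference was 3.15 over the serpin genes and −0.46 over all genes. Of the 57 serpin genes, 35 were well above background on neither SIEC array and entered the fit through mTEC alone. The serpin median is therefore not a measured size of difference. That median of all genes moved to −0.13 with quantile normalization and to −0.90 in the authors' deposited table, where the serpin medians were 3.83 and 2.71. With another background correction, normexp, 38 serpin genes were higher and 13 lower, with a median of 1.09, beside a median of −0.56 over all genes. Slide 2 held 1 mTEC and both SIEC arrays, and within it 48 genes had positive and 9 negative differences, with a median of 3.25 and no test.

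Of the 47 genes that were higher in mTEC, 34 were not well above background on either SIEC array, so their folds are lower limits. For 29 of these a limit could be given, of 1.46-fold or more, and 14 of them were at least 10-fold higher. Serpinb2 averaged 3.02 ± 0.70 on the 6 mTEC arrays (SD) and read −5.53 and −5.88 on the SIEC arrays labelled Cdx1-/- and Cdx1+/+, at least 93.8-fold higher. The limits were 49.8-fold for Serpinb11, 43.9-fold for Serpina3i, 40.0-fold for Serpinb12, 31.4-fold for Serpinb10, a serpin of bone marrow cells, and 30.4-fold for Serpina3f. The other probes of Serpina3i, Serpinb12 and Serpina3f gave lower limits, of 26.35-, 15.27- and 14.65-fold. All 34 genes entered the fit through their mTEC arrays alone, so passing the test adds nothing to these limits. Serpina7, the thyroxine carrier, was at least 19.3-fold higher and Serpinb7 at least 17.5-fold. No fold is given for Serpina12, Serpina3c, Serpina6, Serpinb9c and Serpinb9g, whose mTEC signal did not exceed the limit set by the SIEC arrays, and all 5 had negative differences with the normexp correction.

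A further 13 higher genes had a measured intestinal signal, 12 of them on both SIEC arrays. Serpina3g averaged 5.80 ± 0.18 in mTEC (SD, n = 6) and read 0.76 and −0.70 on the SIEC arrays labelled Cdx1-/- and Cdx1+/+, a log2 difference of 5.76 (54.3-fold). Serpinb6b, known as an inhibitor of granzyme A in mouse, averaged 4.45 ± 0.09 in mTEC and read −1.09 and −2.38 in SIEC (72.7-fold). The plasma serpin genes Serpinc1 (30.5-fold) and Serping1 (18.2-fold), Serpina9 (22.0-fold), Serpina11 (20.1-fold), Serpinb9 (21.2-fold) and the chaperone gene Serpinh1 (5.85-fold) followed. Maspin, Serpinb5, was 2.03-fold higher and read 1.02 and 1.33 in SIEC. It did not pass in the authors' deposited table (difference 0.58, adjusted p = 0.0520). The same fit put 23 of 28 other protease inhibitors higher in mTEC and 4 lower, all 15 cornified keratinocyte genes higher, and 10 of 16 hepatocyte genes higher and 4 lower. Among proteases it put 7 of 11 clotting genes higher and 3 lower, 5 of 7 complement genes higher and 1 lower, and 7 of 14 leukocyte genes higher and 6 lower. It put 4 of 12 cathepsin and caspase genes higher and 6 lower, and 9 of 17 epithelial serine protease genes higher and 6 lower. Of 13 receptors and cofactors 8 were higher and 3 lower.

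In mTEC 9 serpin genes were lower, by 2.93- to 8.23-fold. All 5 measured Serpina1 genes were among them. Serpina1a averaged 1.47 ± 0.29 in mTEC (SD, n = 6) and read 3.84 and 3.67 on the SIEC arrays labelled Cdx1-/- and Cdx1+/+, a log2 difference of −2.29 (SE 0.17). Serpina1d differed by −2.47 (SE 0.18), Serpina1f by −2.46 (SE 0.21), Serpina1c by −2.17 and Serpina1e by −1.62. Serpinf2, the antiplasmin gene, averaged −3.21 ± 0.26 in mTEC and read −0.50 and 0.16 in SIEC, a difference of −3.04 (SE 0.16). The plasma serpin genes Serpinc1, Serpind1, Serpinf1 and Serping1 were higher in mTEC. The intracellular inhibitor genes Serpinb1a (6.13 ± 0.33 in mTEC, 7.84 and 7.57 in SIEC), Serpinb6a (5.19 ± 0.19 in mTEC, 7.06 and 6.75 in SIEC) and Serpinb6c (4.69 ± 0.20 in mTEC, 6.42 and 6.07 in SIEC) completed the lower genes. Serpinb1a did not pass after quantile normalization (difference −0.42, adjusted p = 0.0634). The Serpinb6c value rests on its brighter probe, and the dimmer probe averaged 0.95 in Cdx1-/- mTEC, 1.37 in Cdx1+/+ mTEC and 1.58 in SIEC.

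**Figure D3:**
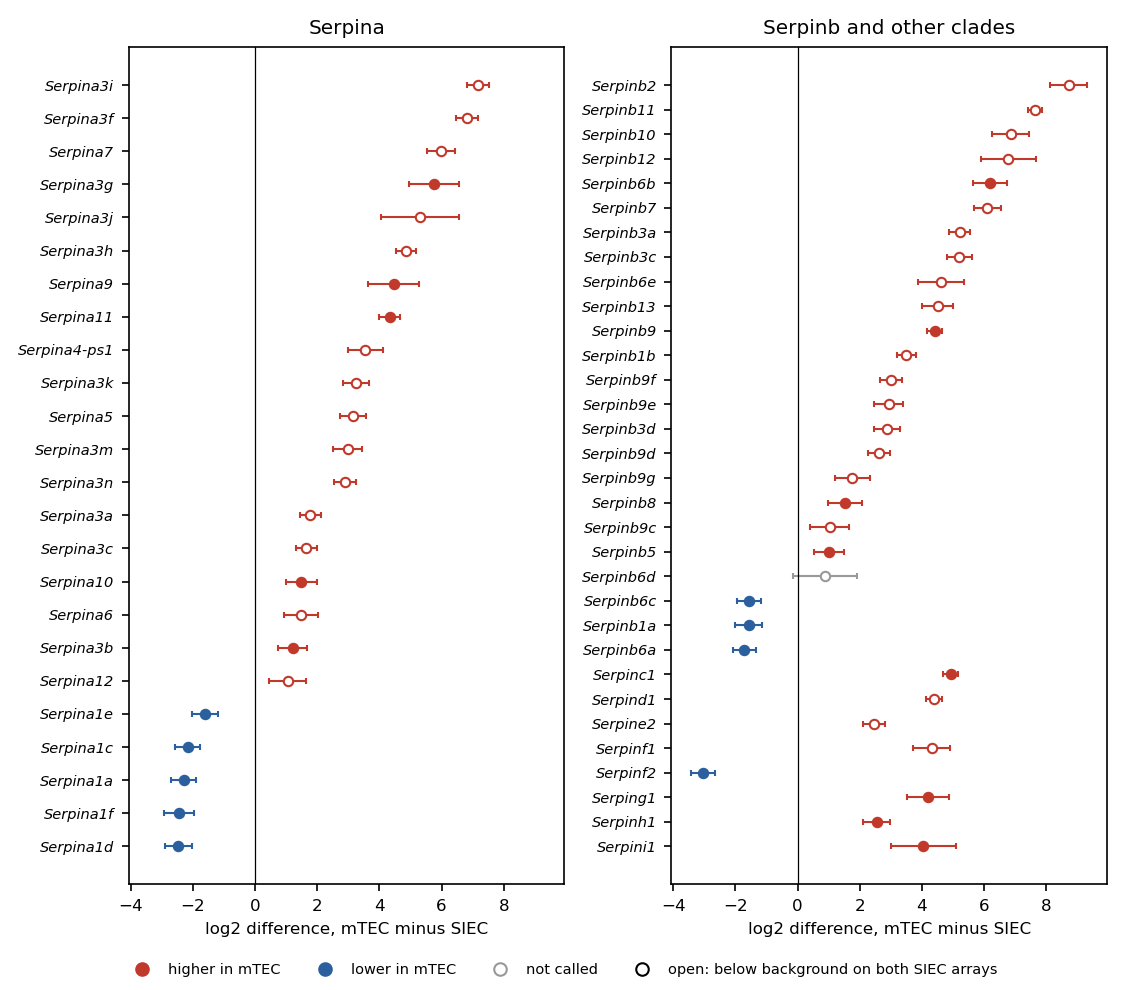
The horizontal axis is the log2 difference, mTEC minus SIEC, with its 95% interval from the limma fit over 8 arrays, for the 24 measured clade A genes on the left and most other measured serpin genes on the right. Open points were not well above background on either SIEC array, so their size is bounded only from below by the limits in the text. The 5 Serpina1 genes, Serpinb1a, Serpinb6a, Serpinb6c and Serpinf2 lie left of 0.

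In small intestine 1 array per label allows values without a test. Of the 21 serpin genes above background on both arrays 4 differed at least 2-fold, 3 of them higher under the Cdx1-/- label, beside 4.56% of 17156 genes in either direction and 3.40% as higher. Serpina3g read 0.76 under the Cdx1-/- label against −0.70 under the Cdx1+/+ label, 1.46 apart on the log2 scale. Serpinb6b read −1.09 under the Cdx1-/- label against −2.38 under the Cdx1+/+ label (1.29), and Serping1 read −1.48 against −2.75 (1.28). Serpina9 went the other way, with −1.61 under the Cdx1-/- label against −0.27 under the Cdx1+/+ label (−1.34). With the normexp correction only Serpina3g remained at least 2-fold apart (1.14). Serpini1 was above background on the array labelled Cdx1+/+ only and at least 1.83-fold lower on the other. Marker sums also differed between the same arrays. The summed signal of 14 leukocyte and mast cell serine proteases was 320.3 under the Cdx1-/- label and 75.1 under the Cdx1+/+ label, that of 11 dendritic cell and macrophage markers 248.9 and 147.8, and that of 10 thymocyte markers 43.5 and 15.8. Of the protease sum, Gzma, the granzyme A gene, gave 297.5 under the Cdx1-/- label and 62.1 under the Cdx1+/+ label. The granulocyte and mast cell sum ran the other way, with 4.17 under the Cdx1-/- label and 6.51 under the Cdx1+/+ label. Of the protease, dendritic cell and thymocyte lists 8, 6 and 8 genes were above background under the Cdx1-/- label and 10, 6 and 7 under the Cdx1+/+ label. Their part in the serpin values was not tested.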

How the data were processed

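The 8 samples were hybridised to single-colour Agilent mouse arrays and read with Feature Extraction 10.7.3.1, per the file headers. The deposited intensity values are processed signals that the scanner software had already background-corrected, and probe positions in the files are in mm9. The authors' deposited normalized table, of the same intensity scale, holds these signals times 1 constant per array, with a column median of 1.

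Control spots and 12 probes with outlier flags were left out, spots of a probe were averaged, and log2 signals were centred on the array's 75th percentile. Of the probes that were well above background on 2 or more arrays of 1 group, the brightest stood for its gene. limma 3.58.1 in R 4.3.3 (lmFit, eBayes) was fitted over all genes, on 6 mTEC arrays for genotype and on 8 arrays for tissue, with Benjamini-Hochberg adjustment at 0.05. The members and gene lists were chosen with earlier results of these data known. Named were called genes, the members of each clade with the highest probe signal or the most different tissues, and intestinal members at least 2-fold apart.

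Same-numbered Cdx1-/- and Cdx1+/+ mTEC samples deviated together from their group means (r between 0.135 and 0.295, against −0.205 to 0.0323 for other numbers). Deviations within a group cancel out, so these correlations are not independent and do not settle whether the numbers pair samples. A fit with the replicate number as a block is given where it changed a call. The labels do not say what a number marks. Where a group is not well above background, the fold is a lower limit set by the weakest detected signals of its arrays. Alternatives were normexp background correction with an offset of 50, quantile normalization, the deposited table, other filters on dim probes, every probe on its own, slide or replicate number as a block, single slides, the genotype term and each array left out. Probe sequences were compared by local alignment in Biopython 1.88. Nothing in the labels says whether samples came from separate sorts beyond their pools. The values of 1 member are not reported here, although it is counted in the totals.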

Additional observations from a re-analysis of the deposited data

Results flagged for a closer look

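Of 9 genes that passed in mTEC and were above background on both SIEC arrays, 7 differed in the opposite direction by label in SIEC, and that difference between tissues was not tested. Serpina3b and Serpinb9 had the same sign in both. The share of opposite signs among all called genes is not given here, so the count cannot be read as particular to serpins. Serpina1a, Serpina1c and Serpina1e, among the 7, are not independent observations because their probes share most letters. The log2 differences, Cdx1-/- minus Cdx1+/+, were −0.38 in mTEC and 0.20 in SIEC for Serpina11, −0.47 and 0.16 for Serpina1a, −0.46 and 0.21 for Serpina1c, and −0.43 and 0.35 for Serpina1e. They were −0.58 in mTEC and 0.27 in SIEC for Serpinb1a, 0.52 and −1.34 for Serpina9, and 0.62 and −0.31 for Serpinb5. In the authors' deposited table the SIEC differences of Serpina11 (−0.01), Serpina1a (−0.05) and Serpina1c (−0.01) were no longer above 0. The Cdx1 probe itself went against the SIEC labels, and with those labels exchanged the 7 signs would match mTEC and the other 2 would not. Whether the labels are exchanged was not tested.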

How the results depend on the processing

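Of the 57 serpin genes, 20 passed between Cdx1-/- and Cdx1+/+ mTEC, and 3170 of all genes. The counts were 9 and 1344 with no filter on dim probes, 13 and 1777 with slide as a block, and 13 and 1851 within slide 1. Both slide fits leave out Cdx1-/- replicate 1 in effect. With the normexp correction they were 14 and 2097. Leaving out single arrays gave 7 to 14 serpin genes and 1319 to 1851 of all genes. With the replicate block, which treats same-numbered samples as pairs, 20 serpin genes passed. Beyond the 6 calls given with their values above it changed no other call. Between tissues, 51 to 60 serpin genes passed under the alternatives, against 56. With normexp the differences of Serpina12 (−0.57), Serpina3a (−0.20), Serpina3c (−0.34), Serpina6 (−0.45), Serpinb6d (−0.51), Serpinb9c (−0.44) and Serpinb9g (−0.33) fell below 0, and 1 in place of 4 intestinal members was 2-fold apart. The cause was not tested. Of all genes tested between tissues 8562 were higher and 12687 lower, against 6053 and 14748 with normexp and 7334 and 14580 in the deposited table. Weak SIEC signals limit tissue folds to lower bounds, and 1 array per label limits the intestinal pair.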
